A study of Mus musculus with 22 samples.

Results

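The transcripts of 9 genes known from mouse primordial germ cells were followed through stem cell cultures and embryo models: Dppa3, Dppa5a, Prdm1, Prdm14, Tfap2c, Nanos3, Dnd1, Kit and Ifitm3. They were picked by symbol from the 55141 genes of the deposited tables, and all 9 were found, each with 1 Ensembl identifier. Poly(A) RNA was sequenced from wild-type (wt) mouse embryonic stem (mES) cells and from cells labelled Hox-/-, which by the series title lack all Hox function. Both genotypes were sampled as mES cells (2 libraries each), after adherent endoderm differentiation (3 libraries each) and as gastruloids, stem cell aggregates used as a model of the early embryo, treated with Activin A and collected at 96 h or 120 h (2 libraries for each genotype and time). Gastruloids treated with Chiron, the GSK-3 inhibitor CHIR99021, were sampled from wt cells only, at the same times (2 libraries each).

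The mES medium contained serum, LIF at 100 ng/ml, CHIR99021 at 3 µM and the MEK inhibitor PD0325901 at 1 µM. Endoderm cultures received Activin A at 100 ng/ml with CHIR99021 at 3 µM, added at 24 h and again at 72 h, and were collected at 120 h. The labels call endoderm cultures and gastruloids mixed cells and give no gastruloid doses. The number of Hox-/- clones is not given, so genotype and clone cannot be told apart. Nor do they say whether libraries of a group came from separate cultures, so the p-values measure the spread between these libraries, which may be technical.

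Primordial germ cells, the founders of sperm and eggs, arise in the mouse from epiblast cells that receive BMP signals after WNT signalling has made them competent. Prdm1 (also called Blimp1), Prdm14 and Tfap2c form the core transcription factor network of their specification. Nanos3 and Dnd1 are RNA-binding proteins that keep the cells alive, Kit is the receptor for the survival and migration signal KIT ligand, and Dppa3 (Stella), Dppa5a and Ifitm3 (Fragilis) mark the early germ cell state. Most of these genes also have roles elsewhere: Prdm14, Tfap2c, Dppa3, Dppa5a and Kit are transcribed in naive pluripotent stem cells, Prdm1 in anterior endoderm, Kit in blood and melanocyte precursors, and Ifitm3 is an interferon-inducible antiviral membrane protein. In bulk RNA, fewer cells of a type and less RNA per cell cannot be told apart.

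On mm10, Prdm1 spans bases 44437177 to 44458748 of chromosome 10, Prdm14 spans 13113457 to 13127163 of chromosome 1 and Tfap2c spans 172549593 to 172558622 of chromosome 2. Nanos3 lies at 84173733 to 84176552 of chromosome 8. Dppa3 lies at 122626410 to 122630272 of chromosome 6 and Dppa5a at 78367052 to 78368177 of chromosome 9. Kit occupies 75574916 to 75656722 of chromosome 5 and Ifitm3 141009586 to 141010770 of chromosome 7. The values below sum the whole gene, not its exons or isoforms.

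Promoter sequences from RefSeq (GRCm38.p6) were matched for 4 of the 9 genes: Prdm1, Nanos3, Kit and Ifitm3. The 3 shown here belong to the genes whose level differed in the same direction between genotypes in Activin A gastruloids at both times, with Prdm1 and Kit lower and Ifitm3 higher in Hox-/-. Each runs 5′ to 3′ on the gene's strand and stops before any base of the window that an annotated exon covers. Capitals mark a match to a searched motif. In the GENCODE annotation Prdm1 extends upstream to base 44528501, past the span given above, so its window lies inside the annotated gene.
Prdm1 (chr10:44458749-44458998, minus strand): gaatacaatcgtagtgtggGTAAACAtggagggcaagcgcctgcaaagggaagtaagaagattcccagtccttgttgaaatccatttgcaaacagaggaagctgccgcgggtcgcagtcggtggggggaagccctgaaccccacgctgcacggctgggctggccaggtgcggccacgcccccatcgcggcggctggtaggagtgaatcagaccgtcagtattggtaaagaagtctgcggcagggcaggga
Kit (chr5:75574737-75574915, plus strand): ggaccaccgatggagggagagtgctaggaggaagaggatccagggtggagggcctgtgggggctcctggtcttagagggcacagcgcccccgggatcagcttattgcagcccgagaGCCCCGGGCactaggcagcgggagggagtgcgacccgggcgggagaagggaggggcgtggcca
Ifitm3 (chr7:141010771-141010994, minus strand): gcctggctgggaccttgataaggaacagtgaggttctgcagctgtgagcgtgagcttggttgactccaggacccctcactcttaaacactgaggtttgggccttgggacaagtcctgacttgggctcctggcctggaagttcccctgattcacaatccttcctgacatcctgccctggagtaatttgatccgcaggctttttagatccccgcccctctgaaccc
The 250 bases before each start were searched on both strands for 6 motifs, with overlaps between motifs allowed. The capitals in Prdm1 are the reverse complement of the forkhead motif TGTTTAC, at position -231 from the start, and 3.17% of 32536 promoters of that length held this motif. The capitals in Kit match the TFAP2 palindrome GCCNNNGGC at position -134, a motif held by 13.8% of promoters. The Ifitm3 window held none of the 6, which included the interferon response element GAAANNGAAA (2.98% of promoters), the T-box site AGGTGTG (5.12%), the orphan receptor site AAGGTCA (4.09%) and the octamer core ATGCAAA (4.15%). A match in these letters is a description and shows no binding.

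Library totals ran from 9108085 to 28819301 counts, and the floor of 3 counts lay between 0.104 and 0.329 CPM (counts scaled to the library total), depending on the library. Each 96 h gastruloid library was deeper than every 120 h one, so time and depth moved together. As a check of the genotype labels, the summed level of 39 Hox genes was 30.4 to 35.7 CPM in wt mES cells against 0.448 to 1.34 CPM in Hox-/- mES cells. In endoderm cultures it was 828 to 877 against 22.5 to 28.6 CPM. Activin A gastruloids held 625 to 660 against 102 to 104 CPM at 96 h, and 1167 to 1190 against 63.8 to 69.5 CPM at 120 h. A difference was called at a Benjamini-Hochberg adjusted p under 0.05 in edgeR's quasi-likelihood test over all genes of a fit, and log2 values come from the same fit with a standard error (SE).

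Although the 9 genes are grouped for their role in germ cells, 5 of them were highest in mES cells. On the length-scaled FPKM level, wt mES cells held Dppa5a at 2807 ± 64.3 (SD, n = 2), Ifitm3 at 198 ± 3.67, Kit at 62.8 ± 2.91, Prdm14 at 25.3 ± 0.286, Tfap2c at 22.2 ± 0.29 and Dppa3 at 13.8 ± 1.34. Nanos3 at 4.76 ± 0.207, Dnd1 at 4.5 ± 0.0342 and Prdm1 at 2.66 ± 0.165 were the 3 lowest on that scale. The other 4 genes had their highest group mean elsewhere. Prdm1 was highest in wt Activin A gastruloids at 120 h, Nanos3 and Dnd1 in wt endoderm cultures and Ifitm3 in Hox-/- endoderm cultures. Only Ifitm3 did not overlap its next group. Prdm1 (30 against 28.3 CPM) and Dnd1 (49.2 against 48.4 CPM) overlapped wt Activin A gastruloids at 96 h. Nanos3 (4.08 CPM) overlapped Hox-/- endoderm cultures (3.8 CPM) and wt mES cells (3.69 CPM).

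**Figure D1:**
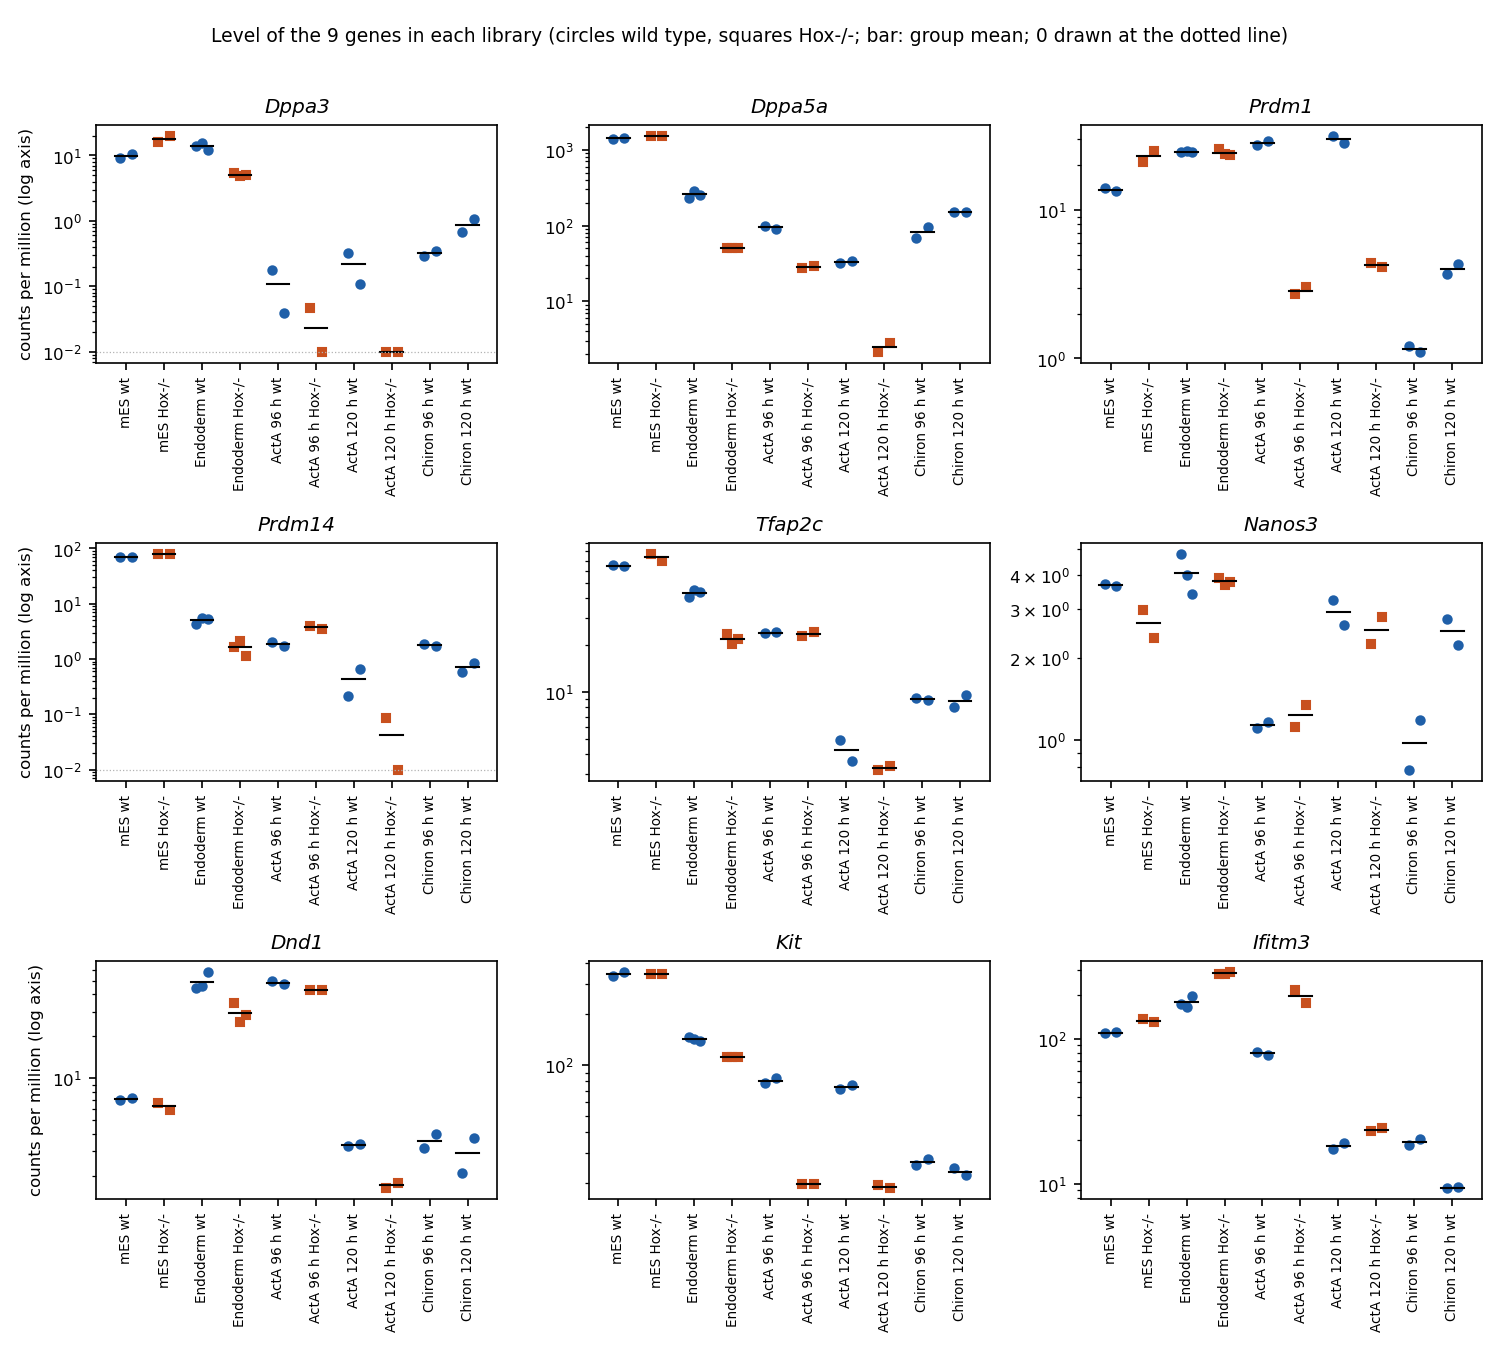
CPM level (log axis) of each of the 9 genes in all 22 libraries, by culture and genotype; circles are wild type, squares Hox-/-, and the bar is the group mean. Prdm1 and Kit squares sit below the circles in Activin A gastruloids at both times, Ifitm3 squares above them, and Nanos3 stays between 0.779 and 4.79 CPM throughout.

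Prdm1, the repressor that opens germ cell specification and also acts in endoderm, had the largest fall in Hox-/- gastruloids at 96 h among the 8 of the 9 genes tested there. The wt Activin A libraries read 27.3 and 29.3 CPM at 96 h and 31.6 and 28.4 CPM at 120 h. The Hox-/- libraries read 2.71 and 3.01 CPM at 96 h and 4.4 and 4.11 CPM at 120 h. Every Hox-/- library lay far below every wt library. The fall was 9.62-fold at 96 h (log2 -3.27, SE 0.118, edgeR adjusted p = 1.5e-28) and 6.51-fold at 120 h (log2 -2.70, SE 0.139, edgeR adjusted p = 2.03e-22).

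Elsewhere Prdm1 was level or higher in Hox-/-, and the difference between cultures and gastruloids was not tested. Endoderm cultures read 24.6, 24.9 and 24.4 CPM in wt and 25.6, 23.8 and 23.3 CPM in Hox-/-, overlapping, with a log2 difference of -0.01 (SE 0.0727, edgeR adjusted p = 0.902). In mES cells the direction was the other way: 14 and 13.4 CPM in wt against 21.1 and 25 CPM in Hox-/-, a rise of 1.67-fold (log2 0.74, SE 0.109, edgeR adjusted p = 2.5e-06). The wt Chiron gastruloids read 1.22 and 1.11 CPM at 96 h, the lowest of any group, and 3.69 and 4.35 CPM at 120 h, which overlapped the Hox-/- Activin A gastruloids of that time.

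Markers of definitive endoderm were lower with Prdm1 in Hox-/- Activin A gastruloids, and lower without it in Hox-/- endoderm cultures. The 6 markers (Sox17, Foxa2, Cer1, Gsc, Hhex and Lhx1) summed to 548 to 605 CPM in wt and 45.7 to 47.3 CPM in Hox-/- Activin A gastruloids at 96 h, and to 356 to 367 against 81.1 to 82.1 CPM at 120 h. In endoderm cultures the sum was 88 to 94.1 CPM in wt and 30.5 to 34 CPM in Hox-/-, while Prdm1 overlapped. Over time in gastruloids of wt cells the sum and Prdm1 did not move together. From 96 h to 120 h the mean sum went from 576 to 362 CPM with Activin A, where Prdm1 was level. With Chiron it went from 86.1 to 29.5 CPM, where Prdm1 rose. In Hox-/- Activin A gastruloids both rose with time, the mean sum from 46.5 to 81.6 CPM and Prdm1 from 2.86 to 4.26 CPM. Between treatments of wt gastruloids, both were higher with Activin A than with Chiron at each time. Mean Prdm1 was 28.3 against 1.16 CPM at 96 h and 30 against 4.02 CPM at 120 h. In mES cells 3 of the 6 in wt and 4 in Hox-/- held 3 counts or fewer, and Lhx1 was at 0 in Hox-/-. The part of endoderm content in the Prdm1 difference was not tested.

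**Figure D2:**
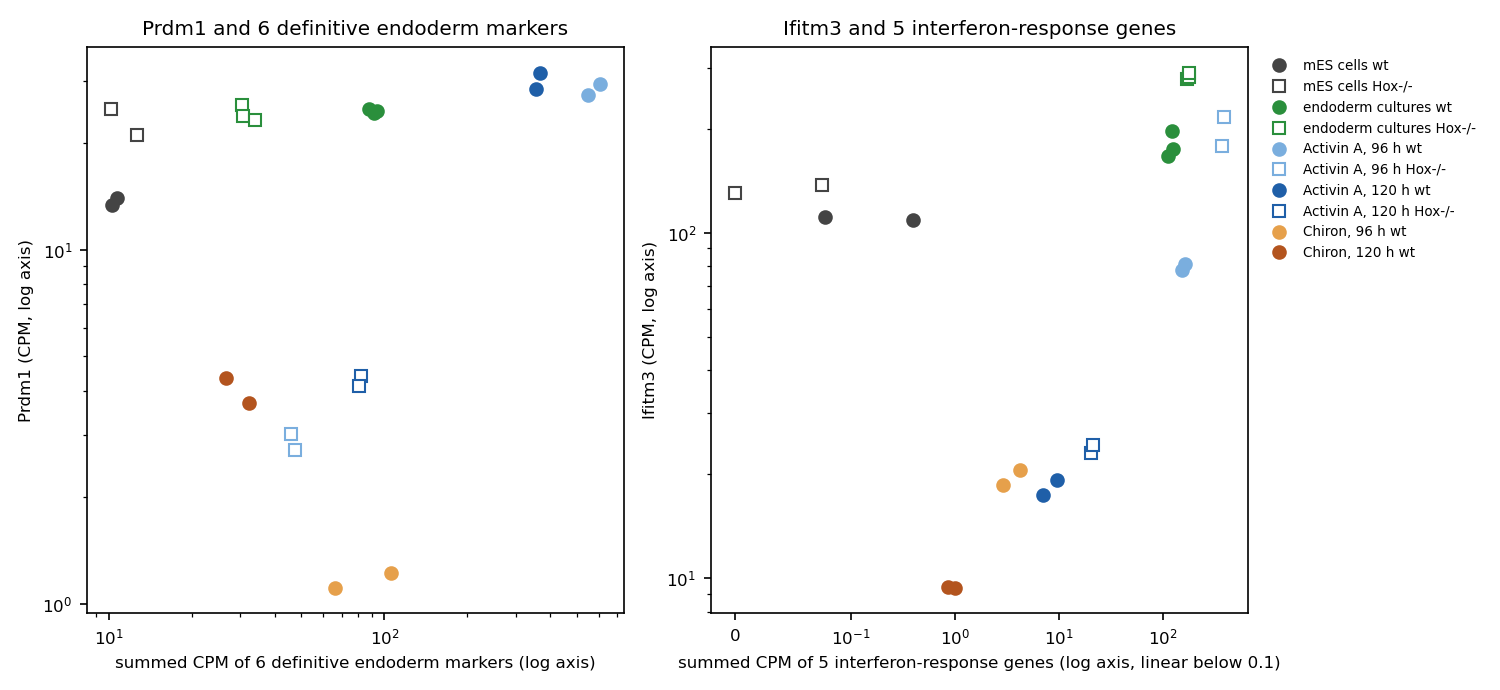
Left, Prdm1 against the summed level of 6 definitive endoderm markers; right, Ifitm3 against the sum of 5 interferon-response genes; all axes are CPM on a log scale, with the right x axis linear below 0.1 so that a sum of 0 is drawn, each point is 1 of 22 libraries and open squares are Hox-/-. In Activin A gastruloids the Hox-/- libraries lie low on both axes of the left panel, and the 96 h Hox-/- libraries lie high on both axes of the right panel; in endoderm cultures Prdm1 is level while the marker sum differs.

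Prdm14, which represses differentiation signals in germ cells and naive stem cells, was a stem cell transcript here. It read 70.3 and 69.3 CPM in wt and 79.3 and 80.1 CPM in Hox-/- mES cells, against 4.3, 5.61 and 5.4 CPM in wt endoderm cultures, a 14.7-fold fall on differentiation (log2 -3.88, SE 0.103, edgeR adjusted p = 9.37e-18). Hox-/- endoderm cultures read 1.65, 2.15 and 1.13 CPM, below every wt one and 3.08-fold lower (log2 -1.62, SE 0.223, edgeR adjusted p = 4.16e-05). In Activin A gastruloids at 96 h the order was reversed, with 2.04 and 1.74 CPM in wt and 4.02 and 3.48 CPM in Hox-/-, a 2.08-fold rise (log2 1.06, SE 0.221, edgeR adjusted p = 0.000117). By 120 h the counts were too few for a firm statement: 8 counts over the wt pair (0.216 and 0.659 CPM) against 1 over the Hox-/- pair, a ratio of 9.71 with a 95% exact counting interval of 1.3 to 431. The edgeR call at 120 h (adjusted p = 0.028) was lost without wt replicate 2, without Hox-/- replicate 2 and with DESeq2.

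Tfap2c, the activator that works beside Prdm1 and Prdm14, had its lowest levels in 120 h Activin A gastruloids of either genotype. Endoderm cultures read 40.7, 45.4 and 43.9 CPM in wt and 23.7, 20.5 and 22 CPM in Hox-/-, a 1.95-fold fall (log2 -0.96, SE 0.0749, edgeR adjusted p = 1.42e-07). At 96 h the Activin A gastruloids overlapped, 23.9 and 24.2 CPM in wt and 23.1 and 24.5 CPM in Hox-/-. By 120 h these had fallen to 4.97 and 3.62 CPM in wt, 5.87-fold (log2 -2.55, SE 0.137, edgeR adjusted p = 2.84e-22), and to 3.19 and 3.37 CPM in Hox-/-, 7.32-fold (log2 -2.87, SE 0.141, edgeR adjusted p = 7.65e-24). The fall with time did not differ between genotypes past the threshold (difference -0.32, SE 0.245, edgeR adjusted p = 0.322). Wt Chiron gastruloids stayed at 9.15 and 8.95 CPM at 96 h and 8.05 and 9.65 CPM at 120 h. Surface ectoderm and trophoblast, which also use Tfap2c, were followed by 6 markers (Tfap2a, Trp63, Krt5, Gata3, Elf5 and Grhl2). In Activin A gastruloids at 96 h their sum was 15 to 16 CPM in wt and 8 to 9.56 CPM in Hox-/-, where Tfap2c overlapped. At 120 h it was 24.4 to 25.9 against 3.36 to 3.37 CPM. Of 3 tested, 1 was called higher and 1 lower at 96 h, beside 38.9% of all genes called. At 120 h Gata3 (log2 -2.49) and Grhl2 (-3.99) were called lower, beside 50.4% of all genes. Tfap2a and Trp63 in wt, and Elf5, Krt5 and Trp63 in Hox-/-, were at the floor at 120 h. In endoderm cultures the sum was 15 to 17.7 against 13.6 to 15.3 CPM. Their part in the Tfap2c levels was not tested.

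Of the RNA-binding pair, Nanos3 was low in every library, from 0.779 to 4.79 CPM (16 to 69 counts). No genotype contrast called it. With time it rose in all 3 gastruloid series: from 1.11 and 1.16 to 3.24 and 2.64 CPM in wt Activin A (log2 1.29, SE 0.295, edgeR adjusted p = 0.000133), from 1.12 and 1.34 to 2.24 and 2.81 CPM in Hox-/- Activin A (log2 1.03, SE 0.304, edgeR adjusted p = 0.0024), and from 0.779 and 1.18 to 2.77 and 2.23 CPM in wt Chiron (log2 1.21, SE 0.303, edgeR adjusted p = 0.00135). The samples did not overlap between times in any of the 3. The Chiron call was lost at the margin without Chiron 120 h replicate 1 (edgeR adjusted p = 0.0502), and both Activin A calls were lost with limma on FPKM (adjusted p = 0.069 in wt and 0.15 in Hox-/-).

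Dnd1, the partner that binds NANOS proteins on target RNAs, was abundant in endoderm cultures and in 96 h Activin A gastruloids and low elsewhere. The Activin A libraries read 49.6 and 47.1 CPM in wt and 42.9 and 42.7 CPM in Hox-/- at 96 h, then 3.24 and 3.4 CPM and 1.64 and 1.78 CPM at 120 h. The fall with time was 15.3-fold in wt (log2 -3.93, SE 0.121, edgeR adjusted p = 3.21e-32) and 25.3-fold in Hox-/- (log2 -4.66, SE 0.138, edgeR adjusted p = 3.56e-33). Wt Chiron gastruloids never reached this level, at 3.16 and 3.99 CPM at 96 h and 2.1 and 3.71 CPM at 120 h. Endoderm cultures read 44, 45.7 and 57.8 CPM in wt and 34.6, 25.2 and 28.5 CPM in Hox-/-, a 1.66-fold fall (log2 -0.73, SE 0.116, edgeR adjusted p = 0.000148), from 6.97 and 7.15 CPM in wt and 6.65 and 5.88 CPM in Hox-/- mES cells. The genotype difference was not called at 96 h (log2 -0.12, SE 0.0579, edgeR adjusted p = 0.0945). At 120 h its call (log2 -0.85, SE 0.28, edgeR adjusted p = 0.00951) was lost without wt replicate 2 or Hox-/- replicate 1, and with limma on FPKM. The authors' FPKM of Dnd1 is 0 in every 120 h Activin A library and every Chiron library, although these 8 libraries held 19 to 115 counts. The gene, at 36763673 to 36766198 of chromosome 18, shares 140 exonic bases with Wdr55 on the other strand (5.8% of its exonic bases), and the use of strand in counting is not given. Wdr55 itself ranged over 44.3 to 88.3 CPM and was highest in the same 96 h Activin A groups, so the Dnd1 values are uncertain to that extent.

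The early marker Dppa3, a maternal and germ cell chromatin factor, was nearly absent from gastruloids. The mES libraries read 9.3 and 10.6 CPM in wt and 16.1 and 20 CPM in Hox-/-, a 1.8-fold rise (log2 0.85, SE 0.127, edgeR adjusted p = 3.49e-06). Endoderm cultures read 14, 15.6 and 12.3 CPM in wt and 5.45, 4.86 and 5.04 CPM in Hox-/-, a 2.7-fold fall (log2 -1.43, SE 0.121, edgeR adjusted p = 3.54e-07). Activin A gastruloids held 5 counts at 96 h and 4 at 120 h over the wt pairs, and 1 and 0 over the Hox-/- pairs, and were not tested between genotypes. The 0 counts of the 120 h Hox-/- libraries allow up to 0.259 and 0.281 CPM at the floor of 3 counts. Wt Chiron gastruloids held 16 counts at 96 h and 18 at 120 h (0.292 and 0.347 CPM, then 0.671 and 1.06 CPM), and the calls that rest on them were not stable. The rise with time in Chiron gastruloids (log2 1.26, SE 0.526, edgeR adjusted p = 0.0417) was lost without any 1 of the 4 Chiron or the 2 wt 120 h Activin A libraries, with adjusted p up to 0.297.

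Dppa5a, an RNA-binding protein of pluripotent and germ cells, showed the widest span of the 9 genes apart from those that reached the counting floor. It read 1401 and 1437 CPM in wt and 1526 and 1512 CPM in Hox-/- mES cells, a difference of 1.07-fold at the margin of the test (log2 0.10, SE 0.0359, edgeR adjusted p = 0.0492, lost under 7 of 10 alternatives). In endoderm cultures the wt libraries read 232, 288 and 255 CPM and the Hox-/- ones 50.5, 50.1 and 50 CPM, 5.12-fold lower (log2 -2.36, SE 0.0712, edgeR adjusted p = 6.75e-12). Activin A gastruloids read 98.3 and 90.3 CPM in wt and 27.7 and 29.3 CPM in Hox-/- at 96 h, 3.2-fold lower (log2 -1.68, SE 0.058, edgeR adjusted p = 2.09e-29). By 120 h they read 31.8 and 33.8 CPM against 2.16 and 2.81 CPM, 12.3-fold lower (log2 -3.62, SE 0.152, edgeR adjusted p = 5.34e-26). In endoderm cultures and at both gastruloid times, no Hox-/- library reached the lowest wt library of the same culture. In wt Chiron gastruloids the level went the other way with time, from 67.7 and 96.6 CPM to 150 and 150 CPM, a 1.68-fold rise (log2 0.75, SE 0.0936, edgeR adjusted p = 2.67e-07). Of its 50-base windows, 38.6% occur in other genes, among them Pigp, at 6.77 to 50.3 CPM, and near-identical pseudogenes, so low values of Dppa5a are uncertain.

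Kit, the receptor, fell in Hox-/- gastruloids at both times by nearly the same factor. The Activin A libraries read 77.7 and 83.2 CPM in wt and 19.8 and 19.7 CPM in Hox-/- at 96 h, a 3.92-fold fall (log2 -1.97, SE 0.0614, edgeR adjusted p = 2.57e-31). At 120 h they read 71.6 and 75.9 CPM and 19.4 and 18.8 CPM, a 3.57-fold fall (log2 -1.84, SE 0.0792, edgeR adjusted p = 1.43e-25). The effects at 96 h and 120 h did not differ past the threshold (difference 0.14, SE 0.107, edgeR adjusted p = 0.333). The Hox-/- level lay below the 22.3 to 27.9 CPM of wt Chiron gastruloids. In mES cells the libraries overlapped, 335 and 355 CPM in wt and 343 and 346 CPM in Hox-/-. Endoderm cultures differed by 1.27-fold, from 147, 142 and 139 CPM to 112, 111 and 112 CPM (log2 -0.35, SE 0.0461, edgeR adjusted p = 3.01e-05).

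Marker lists of some cells other than germ cells that carry Kit were set beside it. The sum of 8 blood and endothelium genes was higher in Hox-/- Activin A gastruloids, where Kit was lower: 39.1 to 39.9 CPM in wt and 52 to 54.2 CPM in Hox-/- at 96 h, and 61.1 to 67.3 against 125 to 129 CPM at 120 h, with Gata1 at 3 counts or fewer in 3 of these 4 groups. Gene by gene the list was divided at 96 h, where of 7 tested Lmo2 was called higher (log2 0.87) and Runx1 (-2.93) and Pecam1 (-1.46) lower, with a median of -0.11. At 120 h 5 of 7 were called higher and 0 lower. Over all genes, 38.9% were called at 96 h and 50.4% at 120 h. The sum of 5 neural crest and melanocyte genes was 6.36 to 7.38 CPM in wt and 6.12 to 6.75 CPM in Hox-/- at 96 h. At 120 h it was higher in Hox-/-, 5.84 to 6.15 against 9.22 to 10.2 CPM. Of 3 tested, 0 were called at 96 h, and 2 were called higher and 0 lower at 120 h. Dct was at the floor in all 4 groups and Foxd3 in the 2 Hox-/- groups. The KIT ligand gene, Kitl, was higher in Hox-/- at 96 h (log2 0.88, SE 0.0634, edgeR adjusted p = 1.19e-16) and at 120 h (log2 0.33, SE 0.0781, edgeR adjusted p = 0.000308). The 6 definitive endoderm markers followed with Prdm1 were also lower in sum in the Hox-/- cultures where Kit was lower. In Activin A gastruloids the mean sum was 576 CPM in wt and 46.5 CPM in Hox-/- at 96 h. At 120 h it was 362 against 81.6 CPM, and in endoderm cultures 91.4 against 31.7 CPM. The part of these cell types in the Kit difference was not tested.

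Ifitm3 was higher in Hox-/- in all 4 cultures. The 96 h Activin A libraries read 81.2 and 77.8 CPM in wt and 216 and 178 CPM in Hox-/-, a 2.59-fold rise (log2 1.37, SE 0.0519, edgeR adjusted p = 9.61e-28). At 120 h they read 17.4 and 19.2 CPM and 23 and 24.3 CPM, a 1.4-fold rise (log2 0.48, SE 0.122, edgeR adjusted p = 0.000808). Endoderm cultures read 174, 166 and 197 CPM and 279, 282 and 290 CPM, 1.59-fold (log2 0.67, SE 0.0613, edgeR adjusted p = 7.28e-07). The mES libraries read 109 and 111 CPM and 137 and 130 CPM, 1.22-fold (log2 0.28, SE 0.0539, edgeR adjusted p = 0.000136). In each culture the groups did not overlap.

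Interferon-response genes were also higher in Hox-/- Activin A gastruloids and endoderm cultures. The sum of Isg15, Irf7, Ifit1, Ifit3 and Oasl2 was 153 to 163 CPM in wt and 369 to 379 CPM in Hox-/- at 96 h, and 7.03 to 9.44 against 20.3 to 21.3 CPM at 120 h. In endoderm cultures it was 111 to 123 against 168 to 177 CPM. In mES cells, where Ifitm3 was also higher in Hox-/-, the sum was at most 0.398 CPM and all 5 genes were at the floor in both genotypes. At 96 h all 5 genes were called higher, beside 38.9% of all genes called, with Isg15 at log2 1.37 (SE 0.049, edgeR adjusted p = 7.33e-29). At 120 h 2 of 5 were called higher, beside 50.4%, and in endoderm cultures 2 of 5, beside 46.2%, with none called lower in either. Ifit1, Ifit3 and Irf7 held 3 counts or fewer in both genotypes at 120 h. The sum and the calls at that time therefore rest on Isg15 and Oasl2. The part of an interferon response in the Ifitm3 difference was not tested. Ifitm3 shares 10% of its 50-base windows with copies that include its neighbours Ifitm1 and Ifitm2. At 96 h Ifitm1 moved the other way, from 132 to 136 CPM in wt to 70.8 to 86 CPM in Hox-/-, while Ifitm2 read 262 to 281 and 284 to 324 CPM (log2 0.21). At 120 h both neighbours were higher in Hox-/-, as Ifitm3 was, with Ifitm1 at log2 1.16 and Ifitm2 at 0.50. Ifitm1 was also called higher in Hox-/- mES cells (0.43) and Ifitm2 in Hox-/- endoderm cultures (0.44).

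Counted over the group, 6 of the 9 genes were called in mES cells, all higher in Hox-/-, beside 23.2% of all genes tested. Dppa5a, Prdm14 and Tfap2c there differed by 1.07-fold to 1.14-fold, and those 3 calls were lost with DESeq2 and without wt replicate 1 or 2, which left 3 called. In endoderm cultures 7 of 9 were called, 6 lower and Ifitm3 higher, beside 46.2% of genes. The members' median log2 difference was -0.73, beside 0.00 over all genes. In Activin A gastruloids 5 of the 8 tested were called at 96 h (3 lower, 2 higher, beside 38.9% of genes) and 6 of 8 at 120 h (5 lower, 1 higher, beside 50.4%).

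**Figure D3:**
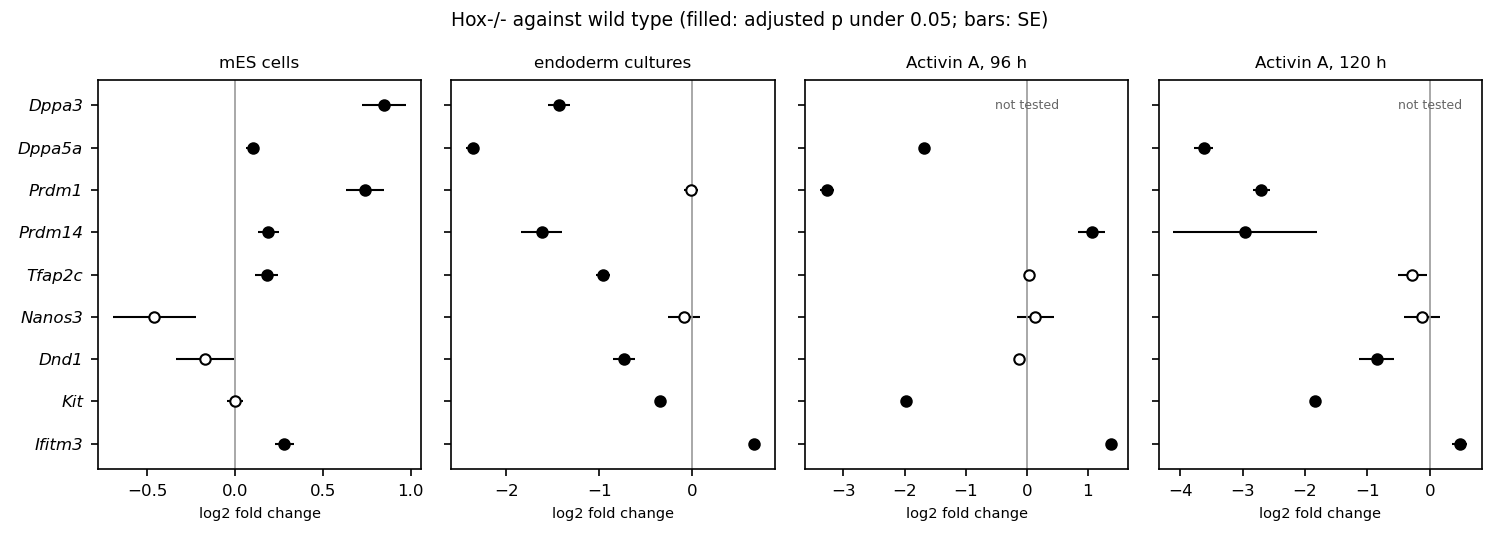
Log2 fold change of Hox-/- against wt for the 9 genes in mES cells, endoderm cultures and Activin A gastruloids at 96 h and 120 h; bars are SE, filled points have an edgeR adjusted p under 0.05, and Dppa3 was not tested in gastruloids. Kit and Dppa5a lie left of 0 in endoderm cultures and at both gastruloid times, Prdm1 only at the gastruloid times, and Ifitm3 lies right of 0 in all 4 panels.

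The genotype effect depended on the culture for most of the 9 genes. Against the effect in mES cells, that in endoderm cultures differed for 7 of 9, beside 24.1% of genes tested, with Dppa5a at -2.43 (SE 0.0923, edgeR adjusted p = 1.21e-12) and Dppa3 at -2.26 (SE 0.189, edgeR adjusted p = 3.92e-08) on the log2 scale. In gastruloids the effect differed between 96 h and 120 h for 5 of 8, beside 38.9% of genes. That count fell to 3 without Activin A wt 96 h replicate 2, Hox-/- 96 h replicate 1 or either Hox-/- 120 h library, and to 2 without wt 120 h replicate 2. For Prdm14 it changed from higher to lower in Hox-/-, with a difference of -4.02 (SE 1.14, edgeR adjusted p = 0.00393), which was lost without wt 120 h replicate 2 (adjusted p = 0.169).

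Between Activin A and Chiron in wt gastruloids at 96 h, Prdm1 and Dnd1 differed the most of the 9 genes. These comparisons reuse the wt Activin A libraries of the genotype comparisons. At 96 h Prdm1 was 23.4-fold higher with Activin A (log2 4.55, SE 0.137, edgeR adjusted p = 8.65e-19), from a mean of 1.16 ± 0.0752 to 28.3 ± 1.42 CPM (SD, n = 2), and Dnd1 was 12.7-fold higher (log2 3.67, SE 0.113, edgeR adjusted p = 1.45e-18), from 3.58 ± 0.585 to 48.4 ± 1.8 CPM. Ifitm3 was 3.87-fold, Kit 2.87-fold and Tfap2c 2.54-fold higher. In all, 6 of 9 were called at 96 h, beside 61.6% of genes, and the single lower call, Dppa3, rested on 5 against 16 counts (log2 -1.64, edgeR adjusted p = 0.0434) and was lost without any 1 of the 8 libraries except Activin A 96 h replicate 1, with adjusted p up to 0.393. At 120 h, 6 of 9 were called, beside 41.9%: Prdm1 was still 7.26-fold, Kit 3.02-fold and Ifitm3 1.88-fold higher, while Dppa5a was 4.74-fold and Tfap2c 2.11-fold lower. Dppa3 (4 against 18 counts) was also lower, by a ratio of 3.87 with a counting interval of 1.27 to 15.7, a call lost without any 1 of the 4 libraries at 120 h (adjusted p up to 0.248). Dnd1 and Nanos3 overlapped between treatments at 120 h. The effect of treatment changed from 96 h to 120 h for 5 of 9, beside 39.6% of genes, and Dnd1 differed the most (-3.48, SE 0.321, edgeR adjusted p = 6.62e-09).

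**Figure D4:**
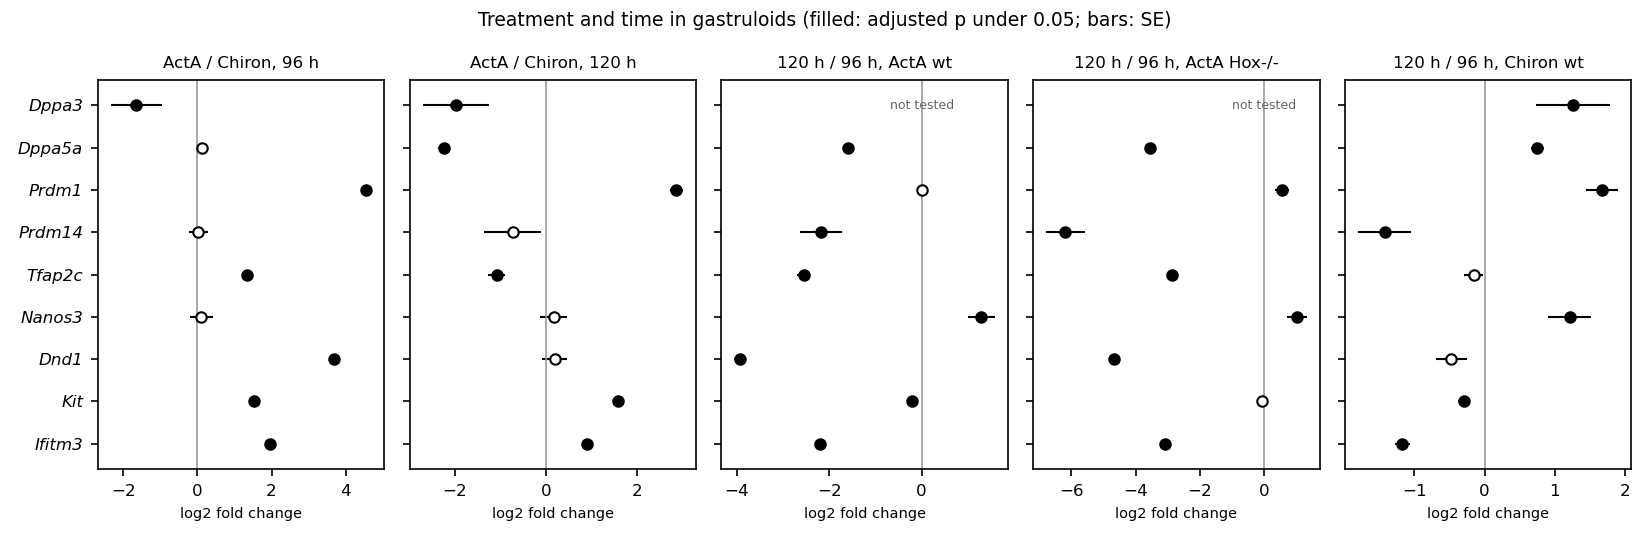
Log2 fold changes of the 9 genes in wt gastruloids with Activin A (ActA) against Chiron at 96 h and 120 h, and at 120 h against 96 h within wt ActA, Hox-/- ActA and wt Chiron gastruloids; bars are SE, filled points have an edgeR adjusted p under 0.05 and each panel has its own scale. Dnd1, Tfap2c, Prdm14, Dppa5a and Ifitm3 fall with time in both ActA series and Nanos3 rises in all 3 series.

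From 96 h to 120 h, 7 of the 8 tested genes were called in wt Activin A gastruloids (beside 74.9% of genes) and 7 of 8 in Hox-/- (beside 72.4%). Dppa5a, Prdm14, Tfap2c, Dnd1 and Ifitm3 fell in both. Prdm14 went from 138 counts to 1 in the Hox-/- pairs, a ratio of 84.7 with a counting interval of 14.9 to 3368. Ifitm3 fell 4.57-fold in wt (log2 -2.19, SE 0.0895, edgeR adjusted p = 4.37e-27) and 8.48-fold in Hox-/- (log2 -3.08, SE 0.073, edgeR adjusted p = 2.34e-37). Prdm1 was level in wt (log2 0.01, SE 0.0838) and rose 1.48-fold in Hox-/- (edgeR adjusted p = 0.0123), a call lost without Hox-/- 96 h replicate 1 or 120 h replicate 1. In wt Chiron gastruloids 7 of 9 were called, beside 61.7% of genes, with Prdm1 3.19-fold higher (log2 1.67, SE 0.232, edgeR adjusted p = 1.3e-06) and Ifitm3 2.25-fold lower (log2 -1.17, SE 0.108, edgeR adjusted p = 2.34e-09) at 120 h. Without Chiron 120 h replicate 1, 4 of 9 were called.

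From mES cells to endoderm cultures, 8 of 9 were called in wt (beside 79.9% of genes) and 7 of 9 in Hox-/- (beside 80.6%). Dnd1 rose 6.42-fold in wt (log2 2.68, SE 0.155, edgeR adjusted p = 2.42e-12) and 4.43-fold in Hox-/- (log2 2.15, SE 0.168, edgeR adjusted p = 3.18e-10). Dppa5a fell 5.95-fold in wt (log2 -2.57, SE 0.0622, edgeR adjusted p = 2.38e-18) and 32-fold in Hox-/- (log2 -5.00, SE 0.0696, edgeR adjusted p = 6.65e-22). Dppa3 rose 1.29-fold in wt (edgeR adjusted p = 0.0143) and fell 3.71-fold in Hox-/- (log2 -1.89, SE 0.135, edgeR adjusted p = 7.18e-11). The wt call of Dppa3 was lost without wt mES replicate 1 or wt endoderm replicate 2.

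Genes that act around the 9 were counted by list. Of 11 genes of the pluripotency network that germ cells share (Pou5f1, Nanog, Sox2, Esrrb, Klf2, Klf4, Zfp42, Tfcp2l1, Tdh, Dppa2 and Dppa4), 11 fell in Hox-/- endoderm cultures; their median log2 difference was -1.84, beside 0.00 over all genes. In Activin A gastruloids 8 were lower and 1 higher at 96 h (median -0.85) and 9 lower and 1 higher at 120 h (median -2.32). Of these, Esrrb, which sustains naive pluripotency, stood at log2 -1.95 in endoderm cultures (SE 0.0697, edgeR adjusted p = 4.12e-11), and Pou5f1, the pluripotency factor that germ cells keep, at -2.02 in 120 h gastruloids (SE 0.127, edgeR adjusted p = 5.5e-19). In mES cells 7 of the 11 were lower and 0 higher, with a median of -0.12, while Dppa3 and Prdm1 were higher. Of all genes tested, 46.2% were called in endoderm cultures, 38.9% at 96 h, 50.4% at 120 h and 23.2% in mES cells. Their median log2 difference was 0.03 at 96 h, -0.02 at 120 h and 0.00 in mES cells.

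The 11 inducing signals and their receptors and effectors moved in both directions. In Hox-/- Activin A gastruloids 5 were higher and 3 lower at 96 h, and 5 higher and 2 lower at 120 h, of 10 tested. Bmp4, the ligand that induces germ cells, was higher at 96 h (log2 1.23, SE 0.0708, edgeR adjusted p = 3.02e-20), and its relative Bmp2 was lower (log2 -1.51, SE 0.191, edgeR adjusted p = 5.18e-09). The formative epiblast gene Otx2, a repressor of germ cell fate, was lower at both times, at log2 -4.08 (SE 0.0926, edgeR adjusted p = 3.4e-37) and -3.63 (SE 0.107, edgeR adjusted p = 1.74e-32). Cxcr4, the receptor that guides germ cell migration, was lower at 96 h (log2 -2.83, SE 0.0869, edgeR adjusted p = 1.44e-31) and not called at 120 h. At 96 h and 120 h, the 6 formative epiblast genes counted 3 higher and 3 lower, then 1 higher and 4 lower. The 8 surface and migration genes counted 3 higher and 2 lower, then 4 higher and 1 lower, and the 8 chromatin partners 1 higher and 1 lower, then 3 higher and 1 lower. These counts stand beside the 38.9% of all genes called at 96 h and 50.4% at 120 h, and those of the chromatin partners, 2 and 4 of 8, were no higher.

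Of 11 genes of the later germline, 8 passed the filter in endoderm cultures. All 8 of these were called lower in Hox-/-, beside 46.2% of all genes called in either direction. Dazl, an RNA-binding regulator of later germ cells, stood at log2 -2.56 (SE 0.3, edgeR adjusted p = 9.15e-06). From mES cells to endoderm cultures the list also mostly fell. Of 9 tested, 6 were called lower and 2 higher in wt, beside 79.9% of all genes called. In Hox-/- 7 were lower and 2 higher, beside 80.6%. Levels differed within the list: Ddx4, the helicase of migrated germ cells, had group means of 0.0431 to 6.75 CPM and Nanos2 of 0 to 0.054 CPM, while Tdrd5 reached 101 CPM in 96 h Hox-/- gastruloids. In 96 h gastruloids 5 passed the filter, with 2 called lower and 1 higher, beside 38.9% of all genes called. The pattern of each of the 9 genes over the 10 group means was closest to that of Abcc2 for Dppa3 (Pearson r 0.99), Dppa4 for Dppa5a (0.99), Igfbp2 for Prdm1 (0.91), Tigar for Prdm14 (0.99), Dock9 for Tfap2c (0.99), Tut7 for Nanos3 (0.99), B4galnt2 for Dnd1 (0.98), Ppp1r13b for Kit (0.99) and Sqstm1 for Ifitm3 (0.98). These were the best of 13247 genes on log2(CPM + 1) and describe likeness over groups that share genotype and culture.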

How the data were processed

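RNA-seq libraries from 22 samples in 10 groups were analysed. The authors deposited whole-number counts per Ensembl gene, not normalized, and FPKM values with symbols and positions. The submitters' processing notes name cutadapt 1.16, STAR and Cufflinks 2.2.1 and the mm10 build. The counting tool and its use of strand are not given in the sources used here; the kit was a stranded one, per the labels' protocols. The 4 wt Activin A libraries are the same in both gastruloid tables.

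Counts were joined to symbols by gene identifier. CPM is counts over the library total, with mean ± SD. Counts were tested in edgeR 4.0.16 (R 4.3.3): filterByExpr, TMM, one coefficient per group, quasi-likelihood F test, Benjamini-Hochberg over all genes of the fit. The mES and endoderm tables were fitted alone, the 4 groups of each gastruloid table together, and the mES and endoderm libraries jointly for differentiation. In all, 14 contrasts were tested, 3 of them differences between effects. Groups whose libraries all held 3 counts or fewer were at the floor. Intervals (95%, exact) and floors cover counting error only, since the tables show no molecular identifiers. Alternatives were RLE size factors, total counts, no filter, a replicate block, DESeq2 1.42.0, limma 3.58.1 on log2(FPKM + 1) and each library left out. The edgeR fit was tested on simulated data. Windows of 50 bases of the longest transcript were matched to all GENCODE transcripts.

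The 9 genes and all lists were chosen with earlier results of these data known. All 9 genes are named, with up to 3 called genes per list and direction in genotype contrasts (2 in others) at 2-fold or more, and the genes most like each (at least 5 CPM in 1 group); Kitl and Nanos2 were chosen after their values were seen. Of 94 listed symbols 1 was not matched and is not analysed here; 1 more gene of the interferon-response list is not reported here.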

Additional observations from a re-analysis of the deposited data

Results flagged for a closer look

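These results stand apart because a test of the difference between 2 effects passed the threshold (edgeR adjusted p under 0.05); each value is a difference of log2 fold changes. For Hox-/- against wt in Activin A gastruloids, 120 h less 96 h, Dppa5a stood at -1.94 (adjusted p = 2.57e-12), Prdm14 at -4.02 (0.00393), Ifitm3 at -0.89 (4.57e-07), Dnd1 at -0.73 (0.0385) and Prdm1 at 0.56 (0.039). The Hox-/- deficit of Dppa5a was therefore larger at 120 h, that of Prdm1 smaller, and the Ifitm3 excess smaller. The Prdm1 difference was lost without Activin A wt 96 h replicate 2, Hox-/- 96 h replicate 1, wt 120 h replicate 2 or either Hox-/- 120 h library (adjusted p up to 0.492 over its alternatives), and the Dnd1 one without any of these or wt 120 h replicate 1 (up to 0.164). The Prdm14 one was lost without wt 120 h replicate 2 (0.169).

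For Activin A against Chiron in wt gastruloids, 120 h less 96 h, Dnd1 stood at -3.48 (adjusted p = 6.62e-09), Tfap2c at -2.42 (2.21e-09), Dppa5a at -2.37 (7.96e-12), Prdm1 at -1.69 (8.54e-06) and Ifitm3 at -1.04 (4.67e-06). Tfap2c was higher with Activin A at 96 h and lower at 120 h.

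For Hox-/- against wt, endoderm cultures less mES cells, Dppa5a stood at -2.43 (adjusted p = 1.21e-12), Dppa3 at -2.26 (3.92e-08), Prdm14 at -1.79 (1.6e-06), Tfap2c at -1.12 (1.92e-07), Prdm1 at -0.73 (0.000375), Kit at -0.32 (0.00137) and Ifitm3 at 0.41 (0.00198). Dppa3 was higher in Hox-/- mES cells and lower in Hox-/- endoderm cultures.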

How the results depend on the processing

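Of 699 values of the 9 genes under settings that kept every library, 655 kept their side of the threshold, 38 lost the call, 5 gained one and 1 reversed; with 1 library left out, 915 of 968 kept their side, 49 lost the call and 4 gained one. Over both, 37 values called under neither setting changed sign. Group levels, relative to each gene's mean over 22 libraries, were also compared under TMM-scaled CPM and FPKM. Of 180, 104 stayed within the SD of the group's libraries and 76 moved further. In mES cells the 6 called genes became 3 without the filter, 3 with DESeq2 and 0 with limma on FPKM (range 3 to 6 with 1 library left out), and 24 called genes of the surrounding lists became 13 with DESeq2 and 1 with limma (13 to 27). The 5 genes whose genotype effect differed between times became 3 with DESeq2 and 3 with limma (2 to 5), and the 7 called over time in Chiron gastruloids ranged over 4 to 7. Dnd1 reversed in that genotype by time difference with limma (0.20), where its FPKM is listed at 0 in 8 libraries that hold 19 to 115 counts. Total counts in place of TMM shifted the 9 genes by a median of 0.12 from mES cells to wt endoderm, -0.11 for genotype at 120 h and 0.11 over time in Chiron gastruloids (log2), and called 4 genes (0 higher) in the genotype by time difference and 5 (0 lower) in Activin A against Chiron at 96 h. limma on FPKM was not run for differentiation, whose tables were normalized separately.

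Same-numbered libraries did not deviate together (correlations -0.13 to 0.15), so the replicate block is an alternative only: it called 5 genes in place of 6 in Activin A against Chiron at 96 h (Dppa3 at -1.64) and 6 in place of 7 over time in Chiron gastruloids (Dppa3 at 1.26).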

Other observations

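Over differentiation the surrounding lists divided. From wt mES cells to wt endoderm cultures all 10 inducing signals tested were called higher (median log2 1.94) and all 11 shared pluripotency genes lower (median -3.41), beside a median of 0.07 over all genes and 79.9% of genes called. Of 8 chromatin partners, 7 were lower, among them Uhrf1, which maintains DNA methylation, at -2.24 (SE 0.0482, edgeR adjusted p = 4.99e-19) and Tet2, which oxidises methylated cytosine, at -3.52 (SE 0.0814, edgeR adjusted p = 1.27e-18).

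Tdrd5, a later germline gene, was high in 96 h Activin A gastruloids, as Dnd1 was. Its group means were 74.2 ± 0.445 CPM in wt and 101 ± 3.95 CPM in Hox-/- Activin A gastruloids at 96 h (SD, n = 2), 7.35 ± 0.00405 and 1.42 ± 0.426 CPM at 120 h, and 8.83 ± 1.06 CPM in wt Chiron gastruloids at 96 h. It fell with time in wt (log2 -3.41, SE 0.0932, edgeR adjusted p = 1.88e-34) and in Hox-/- (log2 -6.14, SE 0.119, edgeR adjusted p = 3.13e-41). Tdrd5 was singled out after its values were seen.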
